A study of Mus musculus with 8 samples.

Results

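Regulatory T cells (Tregs) and the costimulatory and coinhibitory receptors of T cells were followed here through 10 genes, Foxp3, Ikzf2, Il2ra, Ctla4, Icos, Tnfrsf4, Tnfrsf18, Tnfrsf9, Pdcd1 and Nrn1, of the 32285 genes in the count tables. Nrn1 was chosen by its measured rise under TAN feeding in a cell cluster rich in Tregs, so its levels between the feeding groups are described below with no test. The others were taken by name, though with earlier results of these data known. Their rows were found by gene symbol, and their transcript counts were summed per library in 4 gates of lymphoid cells, each set by marker transcripts. Single-cell transcriptomes came from the stromal vascular fraction (SVF, the cells of digested fat without the floating adipocytes) of inguinal white adipose tissue (iWAT), the subcutaneous fat of the groin, of C57BL/6 mice (C57BL/6J by the study's account). Libraries 1, 3, 5 and 7 came from mice that fed ad libitum (Ad-Lib), and libraries 2, 4, 6 and 8 from mice on twice-a-night (TAN) feeding, a schedule of timed meals in the dark phase. By the study's account the mice were males, kept on a regular diet and on their schedule for months, and lymph nodes were taken out of the fat pads. The labels give an age of 8 weeks for both groups, whereas the study describes older mice. Nothing in the labels says whether a library was 1 mouse or a pool, so p-values measure the spread between libraries.

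Tregs are Cd4 T cells that restrain other lymphocytes, and in fat they are known for keeping inflammation low. Foxp3 is the transcription factor that defines them, and Ikzf2 encodes Helios, a zinc finger factor of many Tregs. Il2ra is the chain that gives the interleukin-2 receptor its high affinity, which lets Tregs take up the interleukin-2 that other T cells make. Ctla4, Icos and Pdcd1 belong to the family of Cd28: Ctla4 and Pdcd1 inhibit and Icos costimulates. Tnfrsf4 (OX40), Tnfrsf18 (GITR) and Tnfrsf9 are costimulatory receptors of the tumor necrosis factor receptor family. Nrn1 encodes neuritin, a small membrane-anchored protein first known from neurons. Activated T cells of other kinds can carry most of these receptors too.

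The genes lie in the mouse genome (GRCm38) on chromosomes 1, 2, 4, 13 and X. On chromosome 1, Ctla4 (60887000-60915832) and Icos (60977927-61000320) are neighbours on the plus strand, and Ikzf2 (69531214-69687245) and Pdcd1 (94038305-94052553) lie on the minus strand. Tnfrsf4 (156013843-156016612) and Tnfrsf18 (156026164-156028895) are neighbours on the plus strand of chromosome 4, which also holds Tnfrsf9 (150914562-150946102). Il2ra lies on chromosome 2 (11642807-11693193), Foxp3 on X (7573644-7595245) and Nrn1 on the minus strand of 13 (36725361-36735131).

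Windows from 250 bases before to 50 bases after the RefSeq start sites are shown for Foxp3, Ctla4, Tnfrsf4 and Tnfrsf9 (GRCm38.p6, plus strand, 5′ to 3′). These are the members whose windows held a searched motif. The RefSeq table used here held 9 such windows for 7 of the 10 genes, and no entry for Ikzf2, Icos or Nrn1. Capitals mark the searched motifs on either strand.
Foxp3, chrX:7579426-7579725: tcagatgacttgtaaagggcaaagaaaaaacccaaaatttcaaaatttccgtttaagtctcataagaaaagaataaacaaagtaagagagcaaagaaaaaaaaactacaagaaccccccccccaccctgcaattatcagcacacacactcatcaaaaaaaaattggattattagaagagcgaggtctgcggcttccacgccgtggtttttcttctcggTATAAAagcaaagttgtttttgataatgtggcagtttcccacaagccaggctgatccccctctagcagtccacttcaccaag
Ctla4, chr1:60908775-60909074: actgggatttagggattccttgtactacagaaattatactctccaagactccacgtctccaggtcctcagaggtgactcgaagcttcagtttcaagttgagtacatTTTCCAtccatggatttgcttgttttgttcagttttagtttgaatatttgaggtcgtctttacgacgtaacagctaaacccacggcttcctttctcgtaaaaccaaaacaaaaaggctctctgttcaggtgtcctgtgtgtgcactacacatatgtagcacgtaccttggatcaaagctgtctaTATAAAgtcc
Tnfrsf4, chr4:156013445-156013744: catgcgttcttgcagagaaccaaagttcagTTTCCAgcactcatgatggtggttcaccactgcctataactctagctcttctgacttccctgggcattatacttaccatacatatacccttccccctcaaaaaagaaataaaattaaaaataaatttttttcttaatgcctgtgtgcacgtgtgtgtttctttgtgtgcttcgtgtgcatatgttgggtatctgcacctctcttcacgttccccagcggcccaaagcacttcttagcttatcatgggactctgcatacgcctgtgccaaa
Tnfrsf9, chr4:150927749-150928048: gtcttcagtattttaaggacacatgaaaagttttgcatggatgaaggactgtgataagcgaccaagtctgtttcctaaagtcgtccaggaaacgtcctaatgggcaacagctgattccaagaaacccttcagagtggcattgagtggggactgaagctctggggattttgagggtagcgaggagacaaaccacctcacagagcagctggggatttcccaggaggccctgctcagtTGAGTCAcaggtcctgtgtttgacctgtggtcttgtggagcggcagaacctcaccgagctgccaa

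The motifs were AP-1 (TGANTCA), CRE (TGACGTCA), an NFAT core (TGGAAA), forkhead (TGTTTAC), an ETS site (CCGGAAG) and the TATA box (TATAAA), which do not overlap in these windows. The Foxp3 window held TATAAA from base -32, and the second Foxp3 window held an NFAT core instead. An NFAT core also stood in the Ctla4 and Tnfrsf4 windows and in the other Tnfrsf9 window, and 21.4% of all 32851 windows in the table hold one. The AP-1 letters in the Tnfrsf9 window began at base -15, and 7.81% of all windows hold AP-1. TATAAA, held by 13.6% of all windows, stood after the start site in Ctla4, at base 41. The windows of Il2ra, Tnfrsf18 and Pdcd1 held none of the 6 motifs, which says only that those letters are not there.

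The 8 libraries held between 25320800 and 37140950 unique molecular identifiers (UMIs, counted transcripts), and 3717 to 5654 cells per library passed the filters, 36370 in all. A pair of libraries shared 5 to 16 cell barcodes. Of 4027 T cells with a Cd3 UMI, 199 carried a Foxp3 UMI (Foxp3+ T), 722 carried Cd4 without Foxp3 or Cd8 (other Cd4+ T), 1769 carried Cd8 without Foxp3 or Cd4 (Cd8+ T), and 1337 fell in none of these gates. A gate of 120 cells had Il7r and no Cd3 UMI (Cd3-negative Il7r+). No B, Csf1r, Adgre1, Flt3, Fscn1, Pdgfra or Cdh5 marker UMI was allowed in these gates. Foxp3+ T cells numbered 2, 23, 12 and 6 in Ad-Lib 1, 3, 5 and 7, and 6, 53, 69 and 28 in TAN 2, 4, 6 and 8. Ad-Lib 1, with 2 such cells, was left out of the levels in that gate. Capture was sparse: 45.2% of Foxp3+ T cells carried a Cd4 UMI, and other Cd4+ T cells can hold Tregs whose Foxp3 was not captured. The Cd3-negative Il7r+ cells of TAN 6 stood apart in depth, with a median of 952.5 UMIs against 5276 to 7591 in the other libraries. Dcn, a fibroblast gene, was in 60.5% of them, against 55.6% in Ad-Lib 7 and 14.3% to 33.3% in the rest. Il1rl1, a marker of group 2 innate lymphoid cells, was in 5.26% of those of TAN 6. Il1rl1 was also in 6.67% of these cells in TAN 4 and in 41.7% to 83.3% in the other 6 libraries.

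The share of T cells with a Foxp3 UMI did not separate the groups. It was 1.63%, 5.04%, 8.63% and 6.52% in Ad-Lib 1, 3, 5 and 7, and 2.49%, 5.69%, 4.14% and 7.43% in TAN 2, 4, 6 and 8. The groups overlapped almost wholly, and the lowest share of both lay in the library with the fewest Foxp3+ T cells of its group. The exact 95% interval of a single library was as wide as 2.43% to 13.7% (Ad-Lib 7, 92 T cells), which covers counting error only. The mean Ad-Lib share was 5.46% ± 2.95, against 4.94% ± 2.11 for TAN (SD, n = 4 each; two-sided exact permutation test, p = 0.771; the smallest p this test can give is 0.0286). Thinned to 1000 UMIs per cell, the shares were 2.15% ± 1.30 and 1.73% ± 0.758 (SD, n = 4 each; exact permutation p = 0.686). Cells under 1000 UMIs were left out of the thinned share, so that 1524 of the 1668 T cells of TAN 6 and 924 of the 931 of TAN 4 entered it, and the other libraries lost at most 2 cells each. B cells, which should lack Foxp3, had it in 0 of 2839 cells (which, at a limit of 3 counts, allows at most 0.106%), at a median of 3537 UMIs against 5299 in T cells. As a share of all cells kept, Foxp3+ T cells came to 0.247% ± 0.187 in Ad-Lib, against 0.787% ± 0.482 in TAN (SD, n = 4 each; exact permutation p = 0.114). Foxp3+ T cells with no UMI of Ccr7 or Lef1, genes of naive T cells, came to 0.168% ± 0.106 against 0.248% ± 0.110 (exact permutation p = 0.314). T cells of all kinds made up 2.39% to 9.32% of Ad-Lib cells and 5.58% to 29.5% of TAN cells.

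**Figure D1:**
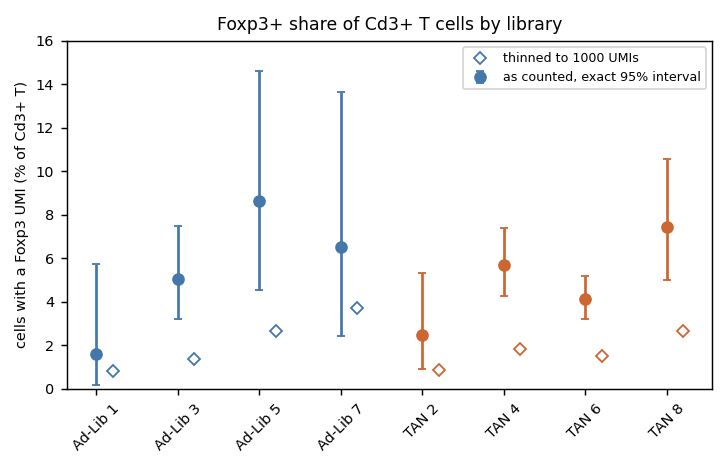
Cells with a Foxp3 UMI as a percentage of Cd3+ T cells, for each library (blue Ad-Lib, orange TAN). Filled circles are shares as counted, with exact 95% binomial intervals, and open diamonds the same shares after thinning to 1000 UMIs per cell; the 2 groups overlap on both scales, with 1.63% to 8.63% in Ad-Lib and 2.49% to 7.43% in TAN as counted.

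Most Foxp3+ T cells carried several of the other genes. Of the 9 genes other than Foxp3, the median cell had a UMI of 5, and 86.9% of Foxp3+ T cells had 3 or more. In other Cd4+ T cells 17.6% had 3 or more, in Cd8+ T cells 5.77% and in B cells 0.0704%, at median depths of 5148, 4945.5, 6204 and 3537 UMIs. Levels are given as UMIs scaled by the gate's total (counts per 1000000 UMIs, CPM), and as tags were counted at one end of each transcript, levels are not compared between genes.

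Of the 7 members tested between these gates besides Foxp3 and Nrn1, Ikzf2 set Foxp3+ T cells apart from other Cd4+ T cells by the most. Its level was 1239, 777 and 1396 CPM in Foxp3+ T cells of Ad-Lib 3, 5 and 7, and 1111, 699, 760.3 and 1222 CPM in those of TAN 2, 4, 6 and 8. No library of another lymphoid gate passed 123 CPM. Over the 5 libraries with at least 10 cells in both gates (Ad-Lib 3 and 5, TAN 4, 6 and 8), Ikzf2 was higher in Foxp3+ T than in other Cd4+ T cells by 3.67 ± 0.17 on the log2 scale (SE; edgeR quasi-likelihood test with the library as a term, adjusted p = 2.08e-12 over all genes). Below Foxp3+ T cells, the order was other Cd4+ T with 70.6 ± 36.2 CPM, Cd3-negative Il7r+ with 69.96 ± 32.2 CPM and Cd8+ T with 49.5 ± 38.0 CPM (SD, n = 8 each), which do not differ beyond their spread.

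Il2ra, the interleukin-2 receptor chain, had the narrowest spread relative to its mean in Foxp3+ T cells. It stood at 212, 264 and 195 CPM in Ad-Lib 3, 5 and 7 and at 229.9, 196, 203 and 267 CPM in TAN 2, 4, 6 and 8. The groups lay over each other. Cd3-negative Il7r+ cells came next with 122 ± 55.6 CPM, then other Cd4+ T with 20.7 ± 13.7 CPM and Cd8+ T with 4.30 ± 2.86 CPM (SD, n = 8 each). The difference of Foxp3+ T from other Cd4+ T was 3.36 ± 0.21 and that from Cd3-negative Il7r+ cells, over 4 libraries, 1.31 ± 0.29 (log2 ± SE, edgeR). Both are descriptions, since Il2ra passed the filter on low counts only through Foxp3+ T cells.

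Ctla4, the inhibitory receptor that competes with Cd28 for its ligands, was 841, 944 and 292 CPM in Foxp3+ T cells of Ad-Lib 3, 5 and 7 and 766, 304, 308 and 606 CPM in those of TAN 2, 4, 6 and 8. Each group held libraries with high and with low levels. It averaged 580.1 ± 279 CPM in Foxp3+ T (SD, n = 7), 152 ± 79.2 in other Cd4+ T and 53.2 ± 21.7 in Cd8+ T (SD, n = 8 each). Foxp3+ T cells exceeded other Cd4+ T cells by 2.00 ± 0.15 (log2 ± SE, edgeR adjusted p = 2.50e-09). In Cd3-negative Il7r+ cells of the 4 libraries compared there was no Ctla4 UMI, so that Foxp3+ T cells were at least 51.8-fold higher against a floor of 3 UMIs over those libraries. A few B cells also carried Ctla4, with a UMI in 50 of 2839 (1.76%) and levels of 4.51 to 98.2 CPM per library.

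Icos, the costimulatory relative of Ctla4, differed least of these 7 between Foxp3+ T and other Cd4+ T cells. Foxp3+ T cells held 539, 222 and 64.9 CPM in Ad-Lib 3, 5 and 7 and 575, 205, 318 and 480.2 CPM in TAN 2, 4, 6 and 8. The lowest value belonged to Ad-Lib 7, with 6 cells. The difference from other Cd4+ T cells was 0.69 ± 0.20 (log2 ± SE, edgeR adjusted p = 0.0484), and it was lost without any of Ad-Lib 3, TAN 4, TAN 6 or TAN 8 (edgeR adjusted p = 0.177, 0.0779, 0.239 and 0.127). Against Cd8+ T cells it was 2.11 ± 0.15 (edgeR adjusted p = 2.72e-12). Against Cd3-negative Il7r+ cells, where Icos did not pass the filter, it was 1.19 ± 0.27, given as a description.

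Tnfrsf4 and Tnfrsf18, neighbours in the genome, had different patterns outside Foxp3+ T cells. Tnfrsf4 in Foxp3+ T cells was 770.1, 333 and 974 CPM in Ad-Lib 3, 5 and 7 and 459.9, 379, 685 and 791 CPM in TAN 2, 4, 6 and 8. It was 93.3 ± 40.4 CPM in other Cd4+ T but 3.43 ± 2.95 CPM in Cd8+ T cells (SD, n = 8 each), and Cd3-negative Il7r+ cells held 1 UMI in all. Tnfrsf18 was 443, 305 and 779 CPM in Foxp3+ T cells of Ad-Lib 3, 5 and 7 and 192, 255, 314 and 557 CPM in those of TAN 2, 4, 6 and 8. Outside this gate it was found in every lymphoid gate, with 171 ± 124 CPM in Cd3-negative Il7r+ cells, 127 ± 67.5 in other Cd4+ T and 62.4 ± 9.19 in Cd8+ T (SD, n = 8 each). Against other Cd4+ T cells, Tnfrsf4 was higher by 2.56 ± 0.24 and Tnfrsf18 by 1.70 ± 0.24 (log2 ± SE, edgeR adjusted p = 5.69e-05 and 0.00102). Against Cd8+ T cells the difference of Tnfrsf18 was 2.41 ± 0.16 (edgeR adjusted p = 7.52e-12). That of Tnfrsf4, 6.89 ± 0.23, is a description, since Tnfrsf4 did not pass the filter in Cd8+ T cells.

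Tnfrsf9, a receptor induced on activated T cells, was sparser. Its level in Foxp3+ T cells was 116, 55.5 and 64.9 CPM in Ad-Lib 3, 5 and 7 and 268, 46.6, 92.8 and 164 CPM in TAN 2, 4, 6 and 8, from 24 UMIs in Ad-Lib and 99 in TAN. The difference from other Cd4+ T cells was 2.78 ± 0.37 (log2 ± SE), a description, since Tnfrsf9 did not pass the filter in other Cd4+ T cells, and 1.96 in cells with no Ccr7 or Lef1 UMI. Pdcd1, which encodes the inhibitory receptor PD-1, was under the filter on low counts in this comparison. In Foxp3+ T cells it gave 5 UMIs in Ad-Lib and 32 in TAN, found in 14.1% of the cells, and in other Cd4+ T cells 16 and 30 UMIs, found in 4.57%.

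Taking these contrasts across genes, all 7 members tested against other Cd4+ T cells besides Foxp3 and Nrn1 were called higher in Foxp3+ T cells (adjusted p under 0.05 and at least 1.5-fold), beside 4.0% of all genes tested called in that direction. Of these, Il2ra and Tnfrsf9 passed the filter on low counts only through Foxp3+ T cells, where they are high, so that their direction is in part fixed by the filter, and 5 passed in other Cd4+ T cells alone. Against Cd8+ T cells the same 7 were called, beside 7.14% of all genes, and all but Il2ra, Tnfrsf4 and Tnfrsf9, or 4, passed the filter in Cd8+ T cells alone. Against Cd3-negative Il7r+ cells 6 were tested and called, beside 4.85%, and 0 of the 6 passed in that gate alone, so their count supports nothing. These receptors are textbook genes of Tregs, and Foxp3 set the gate. Among 24 other Treg-associated genes, 14 were tested against other Cd4+ T cells, and 8 of these passed the filter on low counts in other Cd4+ T cells alone. Of the 8, 4 rose (Areg, Capg, Gata3 and Izumo1r) and 0 fell, with a median of 0.97 (log2) against -0.01 over all genes. The non-member genes with the smallest adjusted p included Izumo1r (folate receptor 4, log2 1.80 ± 0.15, edgeR adjusted p = 1.06e-08) and Ptms (1.46 ± 0.16). The other 3 were Lrrc32 (which holds latent TGF-beta on Tregs, 4.80 ± 0.40), Cd81 (2.41 ± 0.23) and Itgae (an integrin chain, 2.35 ± 0.23), which passed the filter only through Foxp3+ T cells and are descriptions. Of 14 other costimulatory and coinhibitory receptors, 9 were tested and 5 passed the filter in other Cd4+ T cells alone. Of the 5, Cd40lg, the helper ligand, was lower (-2.73 ± 0.28, edgeR adjusted p = 3.66e-07) and 0 were higher, with a median of -0.37. Tnfrsf1b (1.44 ± 0.24) and Cd200r1 (1.06 ± 0.29) passed only through Foxp3+ T cells.

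**Figure D2:**
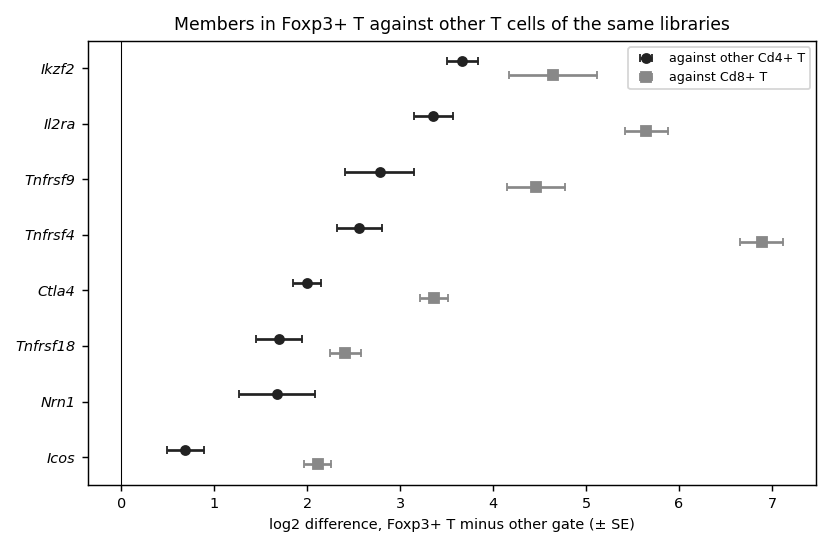
Log2 difference of 8 genes between Foxp3+ T cells and other T cells of the same 5 libraries, from edgeR, with SE (circles against other Cd4+ T, squares against Cd8+ T). Every point lies right of 0, from 0.69 (Icos) to 3.67 (Ikzf2) against other Cd4+ T; Nrn1, drawn against other Cd4+ T alone and under the filter against Cd8+ T, is a description, as are Il2ra and Tnfrsf9 in both contrasts and Tnfrsf4 against Cd8+ T, which passed the filter only through Foxp3+ T cells.

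**Figure D3:**
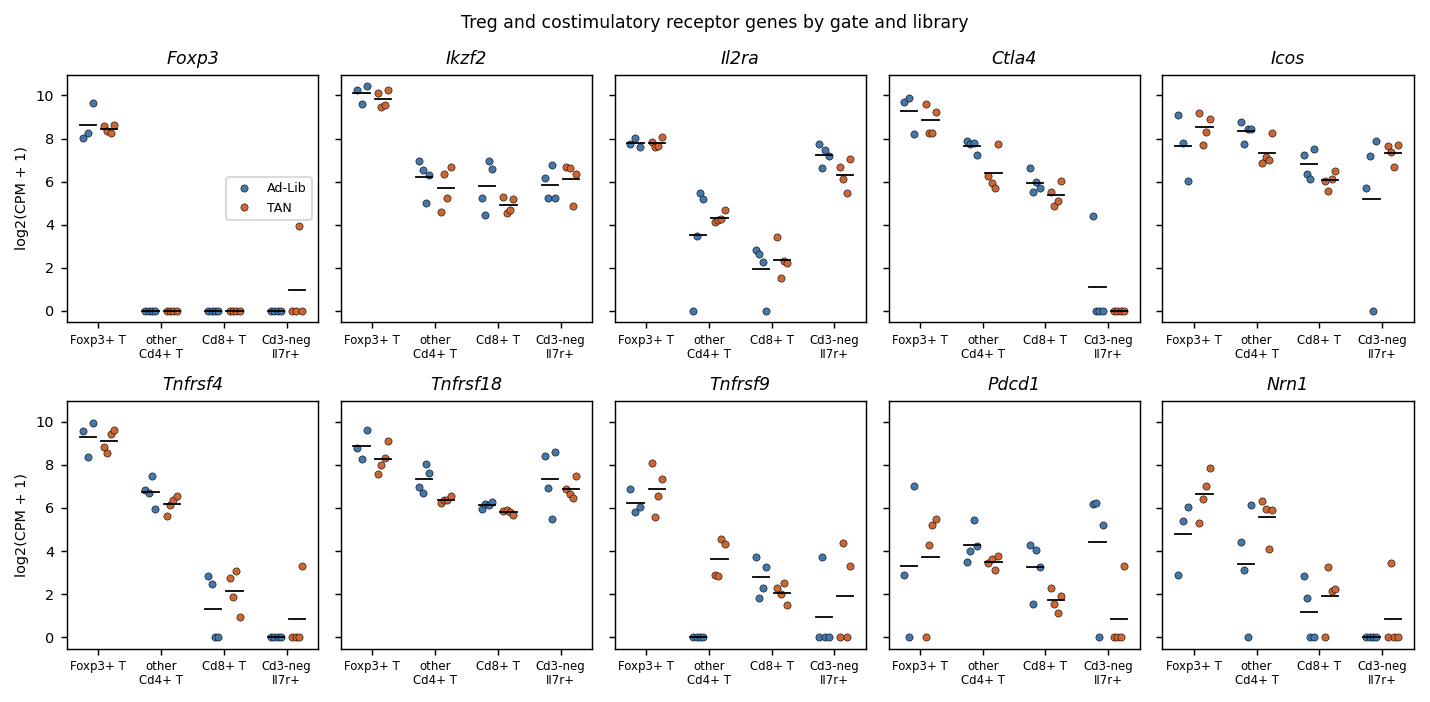
Levels of the 10 genes as log2(CPM + 1) in 4 lymphoid gates, 1 point per library with at least 5 cells (blue Ad-Lib, orange TAN), with bars for group means. Ikzf2, Ctla4 and Tnfrsf4 stand highest in Foxp3+ T cells in every library shown, Ctla4 and Tnfrsf4 are at 0 in Cd3-negative Il7r+ cells of all libraries but 1 each, and Tnfrsf9 is at 0 in other Cd4+ T cells of all 4 Ad-Lib libraries.

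No member was called in Foxp3+ T cells between TAN and Ad-Lib over 3 Ad-Lib and 4 TAN libraries. With the planned minimum of 10 cells, just 2 Ad-Lib libraries remained, so this fit had a minimum of 5 cells, chosen after the cell numbers were seen. Besides Foxp3 and Nrn1, 7 members were tested and 0 called, beside 0.218% of all genes, or 5 of 2294 (171 genes had an unadjusted p under 0.05). The largest difference was that of Ctla4, -0.65 ± 0.37 (log2 ± SE, edgeR adjusted p = 0.773), and the others lay between -0.39 (Tnfrsf18) and 0.28 (Tnfrsf9). With a minimum of 10 cells and 2 Ad-Lib libraries, Ctla4 was lower by -1.09 (edgeR adjusted p = 0.262) and no member was called. With a minimum of 20 cells it was called (-1.07, edgeR adjusted p = 0.0260), beside 0.196% of all genes called lower, in a fit with Ad-Lib 3 as the lone Ad-Lib library, whose spread was taken from the 3 TAN libraries and which therefore compares 1 library with them. The summed level of 7 genes of naive and recirculating T cells (Ccr7, Lef1, Tcf7, S1pr1, Klf2, Satb1 and Il6ra) did separate these libraries, with 357 to 902 CPM in Ad-Lib, against 996 to 1543 CPM in TAN. All 7 had a higher mean in TAN, though none was called. The share of Foxp3+ T cells with a Ccr7 or Lef1 UMI overlapped. It was 16.7% to 39.1% in Ad-Lib, against 33.3% to 75.5% in TAN (two-sided exact permutation p = 0.171).

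Within Foxp3+ T cells, Icos and Tnfrsf18 were lower in the cells that carried a UMI of Ccr7 or Lef1, a homing receptor and a transcription factor of naive and central cells. In 4 libraries with at least 5 cells of both kinds, Icos averaged 202 ± 35.9 CPM with such a UMI and 691 ± 268 CPM without (SD, n = 4), and Tnfrsf18 325 ± 135 against 505 ± 124 CPM. Each was higher without these UMIs in 4 of 4 libraries. Ctla4 was 336 ± 64.9 against 739 ± 456 CPM, higher without in 3 of 4. Il2ra did not follow them, with 230.4 ± 33.6 CPM against 199.9 ± 36.1 CPM, and it was higher without in 0 of 4. A deeper cell more often shows either gene, and the part of depth in the split was not tested.

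In other Cd4+ T cells, Ctla4, Icos and Tnfrsf18 had their lowest levels in TAN libraries, but none was called. Tnfrsf18 was 123, 101, 265 and 194 CPM in Ad-Lib 1, 3, 5 and 7 and 74.9, 81.9, 82.4 and 93.9 CPM in TAN 2, 4, 6 and 8. All 4 TAN libraries lay below all 4 Ad-Lib libraries. The difference was -0.84 ± 0.22 (log2 ± SE, edgeR adjusted p = 0.0809). Icos was 439, 216, 345 and 352 CPM in Ad-Lib, against 117, 139, 127 and 305 CPM in TAN, a difference of -0.81 ± 0.30 (edgeR adjusted p = 0.218). Ctla4 was 235, 211, 221 and 149.7 CPM in Ad-Lib, against 74.9, 60.4, 50.8 and 217 CPM in TAN, a difference of -1.03 ± 0.51 (edgeR adjusted p = 0.435). For both genes TAN 8 alone reached the Ad-Lib range. In all, 5 members besides Nrn1 were tested and 0 called, beside 0.656% of all genes.

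Which libraries and cells entered changed these 3 genes. Without TAN 8, Ctla4 was lower by -1.64 (edgeR adjusted p = 9.91e-04) and Icos by -1.16 (adjusted p = 0.00972), and both were called, beside 1.68% of all genes called lower in that fit. Without Ad-Lib 3, Tnfrsf18 was called (-1.06, edgeR adjusted p = 0.00110), beside 5.36% of all genes called lower in that fit, as it was with DESeq2 (-0.86, adjusted p = 0.0426), beside 1.82%. Icos was also called with no filter on low counts (-0.68, edgeR adjusted p = 0.0171), beside 1.76%. A UMI of Ccr7 or Lef1 was found in 24.7% ± 23.0 of other Cd4+ T cells in Ad-Lib and in 72.5% ± 6.81 in TAN (SD, n = 4 each; two-sided exact permutation p = 0.0286, the smallest possible), with Ad-Lib 3 at 58.9% and the other Ad-Lib libraries at 16.1% or less. The summed naive genes separated the groups as well, with 867 to 1900.3 CPM in Ad-Lib, against 1993 to 2376 CPM in TAN. In cells with neither UMI, the differences were -0.11 ± 0.26 for Tnfrsf18 and -0.17 ± 0.22 for Icos, and that of Ctla4 was -0.80 ± 0.53 (log2 ± SE, edgeR adjusted p = 0.921, 0.836 and 0.622). Fibroblast markers (Pdgfra, Dcn, Col1a1) summed to 24.6 to 1233 CPM in Ad-Lib, against 22.5 to 71.6 CPM in TAN, with Pdgfra at 0 by the gate. A list of 8 genes of group 2 innate lymphoid cells, among them Gata3 and Rora, which T cells also use, summed to 213 to 984 CPM in Ad-Lib, against 123 to 259 CPM in TAN. The part of these cells in the result was not tested.

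**Figure D4:**
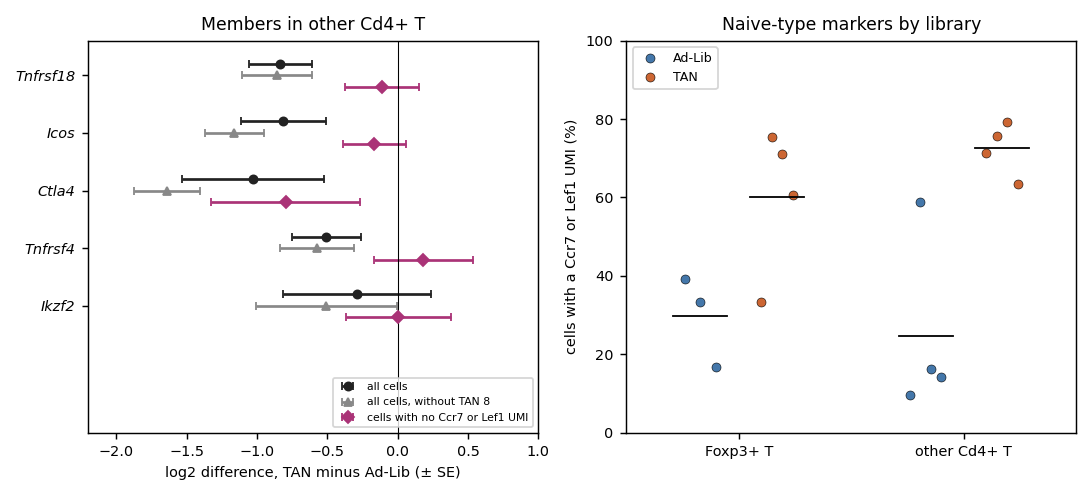
Left, log2 difference of TAN from Ad-Lib (± SE, edgeR) for 5 genes in other Cd4+ T cells, in all cells (circles), without TAN 8 (triangles) and in cells with no Ccr7 or Lef1 UMI (diamonds). Right, percentage of cells with a UMI of either gene per library, with bars for group means: in other Cd4+ T cells the 4 TAN libraries lie above the 4 Ad-Lib libraries, and Tnfrsf18 and Icos lie near 0 on the left once these cells are left out.

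Tnfrsf9 was at 0 UMIs in other Cd4+ T cells of all 4 Ad-Lib libraries and gave 46 UMIs in TAN, or 6.51, 6.14, 22.3 and 18.8 CPM in TAN 2, 4, 6 and 8. These 46 UMIs lay in 19 of the 722 cells of the gate. The groups did not overlap. The pooled TAN level of 15.0 CPM was at least 3.85-fold higher than the floor of 3 UMIs over the Ad-Lib libraries, 3.91 CPM. That bound treats UMIs as independent, though several can come from the same cell. Over Ad-Lib 1, 5 and 7 the floor was 8.02 CPM, above TAN 2 and 4, so 0 UMIs there does not separate them from those levels. TAN 6 gave 29 of the 46 UMIs, and the bound was 2.47-fold without it and 1.87-fold without Ad-Lib 3, which held the most Ad-Lib cells. It was under the filter on low counts, and with no filter edgeR gave an adjusted p of 0.00318, beside 1.14% of all genes called higher. In Foxp3+ T cells of Ad-Lib 3, 5 and 7 Tnfrsf9 was present, at the levels given above. The difference of the TAN effect between the 2 gates rested on Ad-Lib 3 and 5 and TAN 4, 6 and 8, and gave Tnfrsf9 an adjusted p of 0.637 (edgeR). Tnfrsf9 entered that fit only through Foxp3+ T cells, with 0 UMIs in other Cd4+ T cells of both Ad-Lib libraries, so nothing is read from it. In that test of the difference, 0 of 3954 genes were called (0%, with 209 at an unadjusted p under 0.05), and the other 6 members tested had unadjusted p-values of 0.132 or more. With 2 Ad-Lib libraries, the test does not settle for any member whether the effect differed between the gates.

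In Cd8+ T cells 4 members were tested besides Nrn1 and 0 called, beside 4.27% of all genes. Tnfrsf18 was 60.9 to 77.1 CPM in Ad-Lib, against 54.6 to 58.6 CPM in TAN 2, 4 and 6 and less in TAN 8, groups that did not overlap, with a difference of -0.22 ± 0.18 (log2 ± SE, edgeR adjusted p = 0.641). Ikzf2 was highest in Ad-Lib 5 and 7 (123 and 94.3 CPM, against 20.7 to 38.5 CPM in the other 6 libraries). Its difference was -0.66 ± 0.54 (edgeR adjusted p = 0.659), and -1.46 (adjusted p = 3.27e-04) without Ad-Lib 3, in a fit that called 6.56% of all genes lower, and -0.02 (adjusted p = 0.997) without Ad-Lib 5. In the same cells 4 of 12 tested Treg-associated genes were lower in TAN, among them Prdm1 (-2.32 ± 0.41, edgeR adjusted p = 4.89e-04) and Rora (-2.06 ± 0.31, adjusted p = 1.01e-04), transcription factors also found in effector cells, and 2 of the 7 naive genes rose. Natural killer cell markers (42.6 to 291 CPM in Ad-Lib, against 37.4 to 58.3 CPM in TAN), fibroblast markers (85.3 to 235 against 18.1 to 98.5 CPM, Pdgfra at 0 by the gate) and the 8 genes of group 2 innate lymphoid cells (62.6 to 163 against 29.1 to 116 CPM, Il5 at 0) moved with them, each with overlap, and their part was not tested.

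Over all Cd3+ T cells, 9 members besides Nrn1 were tested and 0 called, beside 1.61% of all genes. Foxp3 was 4.95, 14.2, 27.6 and 53.5 CPM in Ad-Lib, against 7.10, 19.8, 17.5 and 30.9 CPM in TAN, a difference of 0.01 ± 0.53 (log2 ± SE, edgeR adjusted p = 1.00). Tnfrsf18 had the smallest adjusted p, with a difference of -0.50 ± 0.13 (edgeR adjusted p = 0.0524), which is also under the 1.5-fold that a call needs. Pdcd1 was 4.62 to 18.1 CPM in Ad-Lib, against 5.47 to 9.73 CPM in TAN (-0.51 ± 0.37, edgeR adjusted p = 0.492), and it was called without Ad-Lib 3 (-1.02, adjusted p = 0.0482), in a fit that called 6.97% of all genes lower. Over the same cells, the 7 naive genes summed to 840 to 1604 CPM in Ad-Lib, against 1751 to 2097 CPM in TAN, without overlap. Fibroblast markers summed to 100.3 to 638 CPM, against 35.5 to 156 CPM (Pdgfra at 0 by the gate), and the 8 genes of group 2 innate lymphoid cells to 163 to 582 CPM, against 99.5 to 193 CPM. Natural killer cell markers summed to 72.9 to 259 CPM, against 29.8 to 73.8 CPM. Trdc and Tcrg-C1, genes of gamma-delta T cells, summed to 76.5 to 155 CPM, against 30.9 to 88.0 CPM. Both lists overlapped between the groups. The part of these cells in the Pdcd1 level was not tested.

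Cd3-negative Il7r+ cells, in which Il1rl1 marks group 2 innate lymphoid cells, held Il2ra, Icos, Ikzf2 and Tnfrsf18. They held almost no Ctla4, Tnfrsf4, Foxp3 or Nrn1 UMIs (2, 1, 1 and 1 in 120 cells). Ikzf2 and Icos were no higher there than in other Cd4+ T cells (means of 69.96 against 70.6 CPM and 138 against 255 CPM). Il2ra was 212, 97.8, 174 and 145 CPM in Ad-Lib, against 100.4, 68.8, 43.1 and 133 CPM in TAN, and the groups overlapped. The difference was -0.83 ± 0.42 (log2 ± SE, edgeR adjusted p = 0.968), from a fit with at least 5 cells in which 0 of 884 genes were called (0%, with 51 at an unadjusted p under 0.05). The lowest value was that of TAN 6, the library whose cells of this gate stood apart. Pdcd1 gave 15 UMIs in Ad-Lib and 1 in TAN, with 70.8, 73.4, 0 and 36.4 CPM in Ad-Lib, against 8.88 CPM in TAN 8 alone (two-sided exact permutation p = 0.143). Natural killer cell markers (Ncr1, Klrb1c, Eomes) summed to 174 to 455 CPM in this gate in Ad-Lib, against 57.4 to 167 CPM in TAN, with a lower TAN mean for all 3 and none at 0, and their part in the levels of the gate was not tested.

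Nrn1 was described without a test. In Foxp3+ T cells it was 6.42, 41.6 and 64.9 CPM in Ad-Lib 3, 5 and 7 and 38.3, 83.8, 130.3 and 229 CPM in TAN 2, 4, 6 and 8. TAN 4, 6 and 8 lay above every Ad-Lib library, and TAN 2, with 6 cells, lay among them. A Nrn1 UMI was found in 4 of 43 Foxp3+ T cells in Ad-Lib (9.30%) and 33 of 156 in TAN (21.2%). After thinning to 1000 UMIs the shares were 0.965%, 3.29% and 7.63% in Ad-Lib 3, 5 and 7 and 5.02%, 6.46%, 8.39% and 12.8% in TAN 2, 4, 6 and 8. B cells had it in 4 of 2839 cells (0.141%). Foxp3+ T cells were higher than other Cd4+ T cells by 1.67 ± 0.41 (log2 ± SE).

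Nrn1 transcripts were concentrated in few cells. Of 338 Nrn1 UMIs in the 3217 TAN T cells, 136 were in Foxp3+ T, 133 in other Cd4+ T and 44 in Cd8+ T cells, and the 810 Ad-Lib T cells held 34. Per UMI counted, the pooled levels were 18.9 CPM in TAN and 7.26 CPM in Ad-Lib. In all, 18 T cells held 5 or more Nrn1 UMIs, 17 of them in TAN, which supplied 79.9% of all T cells, and these 18 cells held 228 of the UMIs. The cell with the most was an other Cd4+ T cell of TAN 4 with 27 Nrn1 UMIs of 12067 and 12 of Tnfrsf4. In other Cd4+ T cells, leaving out the top cell of each library took Nrn1 from 78.1, 61.4, 16.2 and 58.4 CPM to 0, 34.2, 6.97 and 12.8 CPM in TAN 2, 4, 6 and 8, and from 70.4 to 9.20 CPM in Ad-Lib 7. In Foxp3+ T cells TAN 4, 6 and 8 kept 67.2, 102.9 and 177 CPM and Ad-Lib 5 kept 15.6 CPM. Ad-Lib 3, Ad-Lib 7 and TAN 2 each held 1 cell with Nrn1, so that leaving it out brings them to 0 by construction.

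Foxp3+ T cells with and without a Nrn1 UMI were compared in TAN 4, 6 and 8, which had at least 5 of each. The cells with Nrn1 were deeper in all 3, with medians of 6581.5, 6707 and 7316 UMIs against 4741, 5133 and 5076, and doublets were not removed. Ikzf2 was 1175 ± 274 CPM with Nrn1 and 779 ± 254 CPM without (SD, n = 3), and Icos 403 ± 147 and 306 ± 128 CPM. Tnfrsf9 was 122 ± 51.3 and 93.7 ± 62.5 CPM, and Pdcd1 58.7 ± 28.2 and 21.1 ± 4.70 CPM. Each of these was higher with Nrn1 in 3 of 3 libraries. Il2ra, Ctla4 and Tnfrsf4 were higher with Nrn1 in 2 of 3, and Tnfrsf18 in 1 of 3. The mean of Ctla4 was lower with Nrn1 (371 against 433 CPM). Foxp3 itself was 309 ± 84.7 CPM and 355 ± 51.0 CPM. Over 26 sums of gate and library, the non-member genes whose log2(CPM + 1) was most like that of Nrn1 among 9641 genes were Fkbp1a (Pearson r = 0.74), Cacna2d4 (0.73) and Izumo1r (0.73). For Ctla4 they were A430093F15Rik (0.92), Cd2 (0.89) and Cd28 (0.88). Sums from 1 library share its cells and depth, so these values are descriptions.

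**Figure D5:**
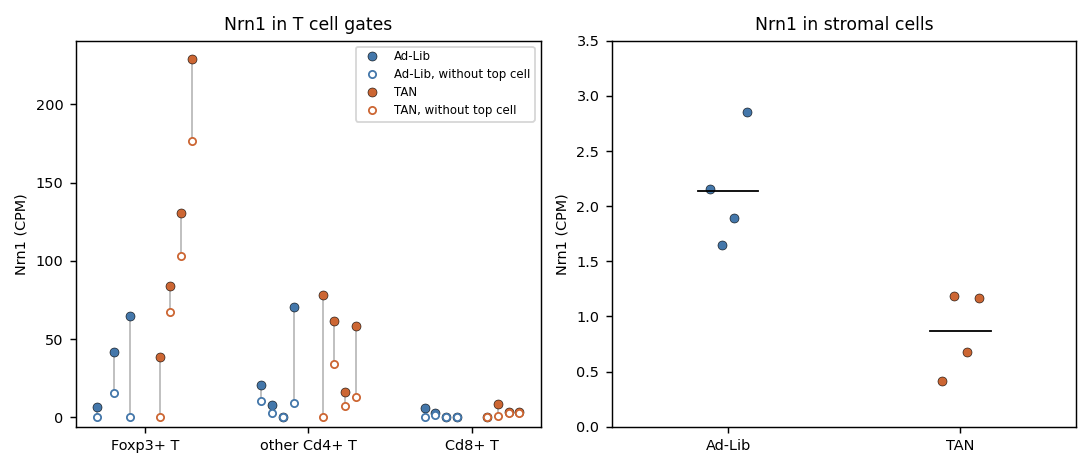
Nrn1 in CPM per library (blue Ad-Lib, orange TAN). Left, 3 T cell gates with all cells (filled) and without the cell with the most Nrn1 UMIs in each library (open): other Cd4+ T cells of TAN 2 fall from 78.1 to 0 CPM, while Foxp3+ T cells of TAN 8 fall from 229 to 177 CPM. Right, stromal cells, on a smaller scale, with bars for group means, where the 4 TAN libraries lie below the 4 Ad-Lib libraries.

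Outside lymphoid cells, Il2ra was lower in TAN in endothelial cells, and Nrn1 was found at low levels in stromal cells. In stromal cells (Pdgfra without Cdh5, 8352 cells) Nrn1 was 2.16, 1.64, 1.89 and 2.85 CPM in Ad-Lib, against 0.417, 1.19, 0.682 and 1.17 CPM in TAN, and the groups did not overlap. The difference was -1.33 ± 0.35 (log2 ± SE), given as a description beside 0.632% of all genes called in that fit. A Nrn1 UMI was in 1.31% of stromal cells. In endothelial cells (Cdh5 without Pdgfra, 9077 cells) Il2ra fell by 0.98 ± 0.26 on the log2 scale in TAN (edgeR adjusted p = 0.0417), beside 1.61% of all genes called lower. It was 8.62, 6.38, 5.32 and 7.20 CPM in Ad-Lib, against 3.02, 2.40, 3.32 and 5.33 CPM in TAN, and TAN 8 reached the lowest Ad-Lib library. Leaving out any of 6 libraries (all but Ad-Lib 5 and TAN 8) ended the call, with adjusted p-values of 0.0636 to 0.156. Macrophage markers (Csf1r, Adgre1, C1qa) in the same gate summed to 182 to 297 CPM in Ad-Lib, against 76.4 to 124 CPM in TAN, with a lower TAN mean for all 3. Dendritic markers (Flt3, Fscn1, Cd209a) summed to 163 to 180.1 CPM, against 117 to 153 CPM, and neither list held a gene at 0. The part of these cells in the Il2ra levels was not tested.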

How the data were processed

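Raw UMI counts per gene and cell barcode were deposited by the authors, 1 table for each of 4 Ad-Lib and 4 TAN libraries, made with Cell Ranger on mm10 (GRCm38) from reads in exons. The submitters' processing notes name version 3.0.2 and the file headers 6.0.1. No normalization had been applied. The 10 members and the gene lists were chosen with earlier results of these data known. Cells with 700 to 30000 UMIs, 200 to 8000 genes and at most 10% mitochondrial UMIs were kept, the limits in the study's methods. Doublets were not removed. The lymphoid gates were fixed as sets of marker UMIs, with at least 1 Cd3 UMI for T cells, and no clustering was used.

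Counts were summed per library and gate and tested with edgeR 4.0.16 (TMM, filterByExpr, quasi-likelihood) in R 4.3.3, on libraries with at least 10 cells. Feeding groups were compared where both had 3 or more such libraries, gates over the libraries with enough cells of both, and the difference of the TAN effect between gates with 2 Ad-Lib and 3 TAN libraries. Calls required an adjusted p (Benjamini-Hochberg, over all genes tested) under 0.05 with a 1.5-fold or larger change. CPM are shares of the gate's UMIs, and their means leave out libraries with under 5 cells. Shares and single levels were compared by an exact permutation test (scipy) over 70 assignments of 4 against 4 libraries or 35 of 3 against 4, on the members in each gate other than Nrn1 and, in its own gate, Foxp3, and those p-values are unadjusted. Intervals are 95% Clopper-Pearson. Thinning gives the chance that 1 UMI remains among 1000. Alternatives were DESeq2 1.42.0, no filter on low counts, other gates and limits, and each library left out in turn. A pair of list genes is not reported here, and the planned gate that used one of them was not run as planned. Named non-member genes were the 5 with the smallest adjusted p among those higher in Foxp3+ T than in other Cd4+ T cells, the 3 most correlated with Nrn1 and with Ctla4, and examples from the lists. The scripts were tested on simulated counts. Of 32285 gene identifiers, 32123 matched GENCODE M21 by a unique symbol, which gave coordinates.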

Additional observations from a re-analysis of the deposited data

Results flagged for a closer look

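In other Cd4+ T cells, TAN 8 lay far above the other TAN libraries for 2 genes. Ctla4 was 217 CPM in TAN 8 against 50.8 to 74.9 CPM in TAN 2, 4 and 6, with a gap of 0.855 of the group's range to the nearest library. Icos was 305 CPM in TAN 8 against 117 to 139 CPM, with a gap of 0.882 of the range. Both gaps exceed Dixon's 95% critical value for 4 samples. The 2 values were the ones singled out among 69 groups of 4 libraries examined, and chance alone singles out about 1 in 20 groups.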

How the results depend on the processing

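Between TAN and Ad-Lib, the genes called in other Cd4+ T cells went from 26 to 106 with DESeq2, 416 with no filter on low counts, 118 without the exclusion of other lineages and 1 in cells with no Ccr7 or Lef1 UMI, a gate chosen after the data were seen. In Cd8+ T cells 262 became 541 with no filter and 43 in cells with neither UMI. In all Cd3+ T cells 140 became 374 with DESeq2, 492 with no filter, 214 with at least 2 Cd3 UMIs, 217 without lineage exclusion and 6 in cells with neither UMI. In Foxp3+ T cells (minimum of 5 cells) 5 became 8 with DESeq2, 23 with no filter, 9 with no Cd8 UMI 0 without lineage exclusion or in cells with neither UMI, 1 with a minimum of 10 cells (2 Ad-Lib libraries) and 13 with one of 20 (Ad-Lib 3 alone), and in Cd3-negative Il7r+ cells 0 became 12 with no filter. In stromal cells 78 became 143 with DESeq2. For Foxp3+ T against other Cd4+ T cells, 260 genes became 121 with DESeq2, 462 with no filter and 75 in cells with no Ccr7 or Lef1 UMI. Against Cd8+ T cells, 572 became 1050 with no filter and 178 in those cells. Against Cd3-negative Il7r+ cells, 190 became 539 with no filter, 1191 without lineage exclusion and 24 in those cells. The test of the difference between gates called 9 genes with no filter, 1 with a minimum of 20 cells (the same libraries as without Ad-Lib 5, which leaves Ad-Lib 3 alone, taken to vary like the others), 14 without lineage exclusion and 8 in cells with neither UMI. The cause of these shifts was not tested.

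The TAN minus Ad-Lib share of Foxp3+ T cells changed sign without lineage exclusion (unthinned 0.117 percentage points), and the log2 change of Foxp3 in all Cd3+ T cells was -0.16 with DESeq2. In cells with no Ccr7 or Lef1 UMI, several log2 changes in TAN changed sign: Ikzf2 0.00418 and Tnfrsf4 0.18 in other Cd4+ T, Tnfrsf18 0.17 in Cd8+ T, Ikzf2 0.000213, Icos 0.34 and Tnfrsf4 0.64 in all Cd3+ T, Il2ra -0.55, Tnfrsf4 0.41 and Tnfrsf18 0.0629 in Foxp3+ T and Icos -0.16 in Cd3-negative Il7r+ cells. In Foxp3+ T cells Il2ra was -0.0210, Icos -0.24 and Tnfrsf4 0.15 with a minimum of 10 cells, and Icos -0.72 and Tnfrsf9 -0.28 with one of 20. With no filter, Tnfrsf4 was 0.0046 in all Cd3+ T and 0.0387 in Foxp3+ T cells.

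With 1 library left out, the counts of called genes ranged from 0 to 401 in other Cd4+ T, 109 to 619 in Cd8+ T, 5 to 1031 in all Cd3+ T, 0 to 74 in Foxp3+ T, 0 to 0 in Cd3-negative Il7r+, 179 to 292 in endothelial and 27 to 121 in stromal cells. The contrasts of Foxp3+ T cells ranged from 120 to 344, 366 to 817 and 133 to 269 against other Cd4+ T, Cd8+ T and Cd3-negative Il7r+ cells, and the difference between gates from 0 to 1. The share differences ranged from -0.849 to 0.112 (thinned), -1.80 to 0.539 (unthinned) and 0.396 to 0.757 (of all cells), and the log2 change of Foxp3 in all Cd3+ T cells from -0.25 to 0.40. Tnfrsf4 ranged from -0.27 to 0.13 in all Cd3+ T cells, and in Foxp3+ T cells Il2ra from -0.0615 to 0.14, Icos from -0.12 to 1.18, Tnfrsf4 from -0.44 to 0.12 and Tnfrsf9 from -0.0115 to 0.96. Tnfrsf18 in other Cd4+ T cells was called with DESeq2 (adjusted p = 0.0426), and the Icos contrast with other Cd4+ T cells was lost with it (adjusted p = 0.0619) and with no Cd8 UMI in the Foxp3+ T gate (adjusted p = 0.0680). No paired analysis was possible because the groups share no replicate numbers. In Cd3-negative Il7r+ cells no Ad-Lib library had 20 cells, so that fit could not be made, and with 10 cells (2 Ad-Lib libraries) it called 0 genes. Ad-Lib held 43 Foxp3+ T cells, 23 of them in Ad-Lib 3, and the 74 calls in Foxp3+ T cells came without that library.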

Other observations

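The ligands of these receptors were read in cells outside the lymphoid gates. Dendritic-type cells (Flt3, or Fscn1 with Ccr7, without Pdgfra or Cdh5, a definition chosen after marker levels were seen) numbered 454. They held Cd86, a ligand of Cd28 and Ctla4, at 80.6 ± 16.5 CPM, Icosl, the ligand of Icos, at 57.9 ± 36.7 CPM, and Tnfsf9, the ligand of Tnfrsf9, at 118 ± 95.1 CPM (SD, n = 8). Macrophages held Cd86 at 115 ± 19.5 CPM and B cells at 47.5 ± 15.0 CPM. Cd274, which encodes PD-L1, was 50.6 ± 9.40 CPM in endothelial cells. In B cells Cd274 was 15.5 ± 6.66 CPM in Ad-Lib, against 25.0 ± 2.77 CPM in TAN (SD, n = 4 each; two-sided exact permutation p = 0.0286, the smallest possible, unadjusted over 9 ligands in each gate), and the groups did not overlap. Ad-Lib 7 held 26 B cells, and the 31 of Ad-Lib 1 had a median of 9539 UMIs against 3180.5 to 3880 in the other libraries, with doublets not removed. Cd86 in endothelial cells (8.46 ± 2.04 against 3.52 ± 0.806 CPM) and Cd80 in stromal cells (2.96 ± 0.325 against 1.42 ± 0.361 CPM) did not overlap either and were lower in TAN (exact permutation p = 0.0286 each). These were the only cases without overlap among the 9 ligands over all gates, lymphoid gates included. Chance alone leaves a share of 0.0286 of such comparisons without overlap, so some were to be expected over that many. Macrophage markers in the endothelial gate summed to 182 to 297 CPM in Ad-Lib, against 76.4 to 124 CPM in TAN, and those in the stromal gate to 33.6 to 73.4 CPM, against 28.6 to 45.7 CPM, with a lower TAN mean for all 3 genes in both. Their part in the Cd86 and Cd80 levels was not tested.

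The dendritic-type cells also carried some of the receptors themselves, with Tnfrsf4 at 66.7 ± 63.9 CPM, Tnfrsf18 at 37.6 ± 11.6 CPM and Tnfrsf9 at 15.2 ± 12.03 CPM (SD, n = 8). Tnfrsf4 was 0 to 102 CPM in Ad-Lib, against 8.19 to 187 CPM in TAN. Il2, the cytokine bound by Il2ra, was 79.0 ± 80.5 CPM in other Cd4+ T cells of Ad-Lib and 27.2 ± 4.52 CPM in those of TAN (SD, n = 4 each; exact permutation p = 0.143).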
